A study of Mus musculus with 3 samples.

Results

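The genes that encode collagen chains were examined in cultured mouse chondrocytes, the cells that build cartilage. Members were the rows of the count table whose symbol is Col, a number, the letter a and a number. This rule found 44 genes of 44788, and they were grouped by the kind of assembly their proteins form: 11 fibrillar, 9 FACIT (fibril-associated collagens with interrupted triple helices), 3 short-chain network, 7 beaded-filament, 9 basement-membrane and 4 transmembrane collagens, with Col26a1 outside these classes. Of the 44, 36 passed edgeR's filter on low counts and were tested, and 8 did not pass it.

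Chondrocytes came from knee joint cartilage of C57BL/6 mice, whose age is not given in the sources used here. The 2 cKO libraries carried Col2a1-CreERT2 and Kdm6b f/f, that is, a tamoxifen-activated recombinase driven by the Col2a1 promoter together with floxed alleles of the histone H3 lysine 27 demethylase gene Kdm6b. The single control library had Kdm6b f/f alone. Both genotypes were cultured in medium containing 10% serum and exposed to 1 µM 4-hydroxytamoxifen over 48 h. Since the control lacks the recombinase, the presence of the recombinase and the loss of Kdm6b cannot be told apart. The promoter that drives the recombinase is that of Col2a1, itself one of the genes described here.

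Collagens are secreted proteins whose chains wind around each other in a helix of Gly-X-Y repeats. In cartilage the fibril is a copolymer of type II collagen with type XI inside it and type IX, a FACIT, on its surface, and it withstands the swelling pressure of aggrecan. Types I, III and V form the fibrils of bone, tendon, skin and of chondrocytes that lose their cartilage character in culture. Type VI forms beaded filaments around the chondrocyte, type X marks hypertrophic cartilage, and type IV builds the sheets of basement membranes.

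Depth was alike, between 12489738 and 12636471 counts a library. Kdm6b had 84.2 and 74.1 CPM (counts scaled to a common library size, with TMM factors) for cKO against 103.9 for the control, a log2 fold change of -0.39 ± 0.14 (SE) that did not pass (adjusted p = 0.138, edgeR). Which exons are floxed is not stated in the labels, so whole-gene counts are a weak check of the deletion. All 7 chondrocyte markers on the list used here, none of them a collagen, were present, and each of the 7 was lower in cKO in edgeR, with a summed level of 2460 and 2102 CPM against 5023 CPM. The synovial fibroblast markers summed to 620 and 462 CPM against 390 CPM, with 2 of 5 tested higher, and the osteoblast markers to 20.6 and 22.4 CPM against 34.9 CPM, with 1 of 4 lower. Over all genes tested in edgeR, 1.9% were called lower and 3.01% higher. DESeq2 called 5 of the chondrocyte, 0 of the synovial fibroblast and 0 of the osteoblast markers, and limma-voom called 7, 2 and 1. Bglap, which defines mature osteoblasts, had 1, 4 and 1 counts. Endothelial markers summed to at most 1.29 CPM in any library, with Cdh5 and Emcn at 0 counts in all 3, and epithelial markers to at most 0.645 CPM. Mural and smooth muscle markers summed to 1241 and 1397 CPM against 1207 CPM, tendon markers to 74.8 and 35.7 against 34.7 CPM and leukocyte markers to 9.15 and 8.13 against 4.76 CPM. Of these 3 lists, 0 of 12 tested genes passed in edgeR, DESeq2 or limma-voom. In edgeR 2 of the 12, both leukocyte genes, had an unadjusted p under 0.05, as 15.7% of all tested genes had. The mural sum was mostly Cspg4 (756 and 763 against 681 CPM) and Acta2 (476 and 623 against 516 CPM). Rgs5, Myh11, Des and Cnn1 had at most 108 counts in any library. Of the tendon genes, Thbs4 had 570 and 74 counts against 144. Scx (224 and 240 against 168) and Mkx (130 and 128 against 99) were higher in both cKO libraries, and Tnmd (8 and 15 against 19) lower. The part of these shifts in the collagen results was not tested, and in bulk RNA fewer cells of a type and less RNA per cell cannot be told apart. The 2 cKO libraries also differ in Xist, the RNA of the inactive X chromosome, with 2 counts in replicate 1 and 10081 in replicate 2 against 1 in the control.

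Collagen genes took a smaller share of the reads in cKO chondrocytes. They held 5.33% of counts in cKO replicate 1 (95% Wilson interval 5.316 to 5.341), 4.98% in cKO replicate 2 (4.972 to 4.996) and 6.53% in the control (6.519 to 6.547), where the intervals cover counting error alone. The summed level fell short of the control by 11963 CPM in replicate 1 and 16565 CPM in replicate 2. Type II made up 63.4% and 49.1% of that shortfall, type XI 17% and 15%, type XII 8.61% and 9.53%, and type III 3.71% and 9.56%. Type I, the collagen of bone and skin, made up 2.73% and 5.76%. Within the collagen counts, type II went from 30.6% in the control to 23.3% and 24.4% in cKO, and type I from 22.3% to 26.7% and 27.9%, so that type I exceeded type II in both cKO libraries and not in the control. These shares sum the 2 genes of type I and are not scaled for exon length. The summed type I level itself was 0.978 and 0.935 of the control.

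**Figure D1:**
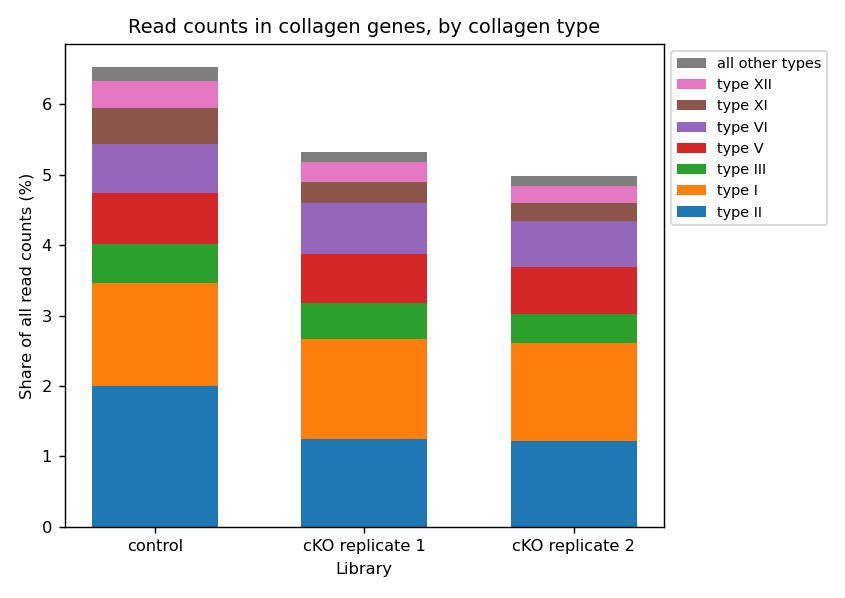
Share of all read counts (%, y axis) held by collagen genes in the control and the 2 cKO libraries, stacked by collagen type with the chains of a type summed. The whole bar is 6.53% in the control and 5.33% and 4.98% in cKO, and the type II segment is the one that shrinks most, from 1.998% to 1.241% and 1.214%.

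Across the tested members, 9 of 36 fell and 2 rose past an adjusted p of 0.05 in edgeR. These are 25% and 5.56% of them, where over all 15529 genes tested 1.9% were called lower and 3.01% higher, or 4.91% in either direction. Those that fell were the type IX genes Col9a1, Col9a2 and Col9a3, the type XI genes Col11a1 and Col11a2, and Col27a1, Col14a1, Col8a2 and Col4a6. Those that rose were Col8a1 and Col18a1. The median log2 fold change of the 36 was -0.10, beside -0.0022 over all genes, so the middle of the family lay near the control. Both cKO libraries lay below the control for 19 members (37.4% of all genes) and above it for 13 (36.6% of all genes), and they lay on either side of it for 4. A count without a model, of genes at least 1.5-fold from the control in each cKO library, gave 10 lower and 4 higher members, against 4.26% and 5.29% of all genes.

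With only 1 control library, the edgeR fit has 1 residual degree of freedom and assumes that the control varies like the cKO pair. The labels do not say how many animals or cultures stand behind each library. The difference in Xist given above shows that the cKO libraries are not repeats of 1 RNA sample. The p-values rest more on a prior variance drawn from all tested genes, with 19.9 degrees of freedom, than on each gene's spread in this pair. They hold no measure of the spread among controls. At prior degrees of freedom of 3, or without a filter on low counts, 0 members passed, and 14 of 36 and 16 of 43 had an unadjusted p under 0.05, against 8.12% and 7.6% of all genes. DESeq2 called 8 members lower and 1 higher.

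**Figure D2:**
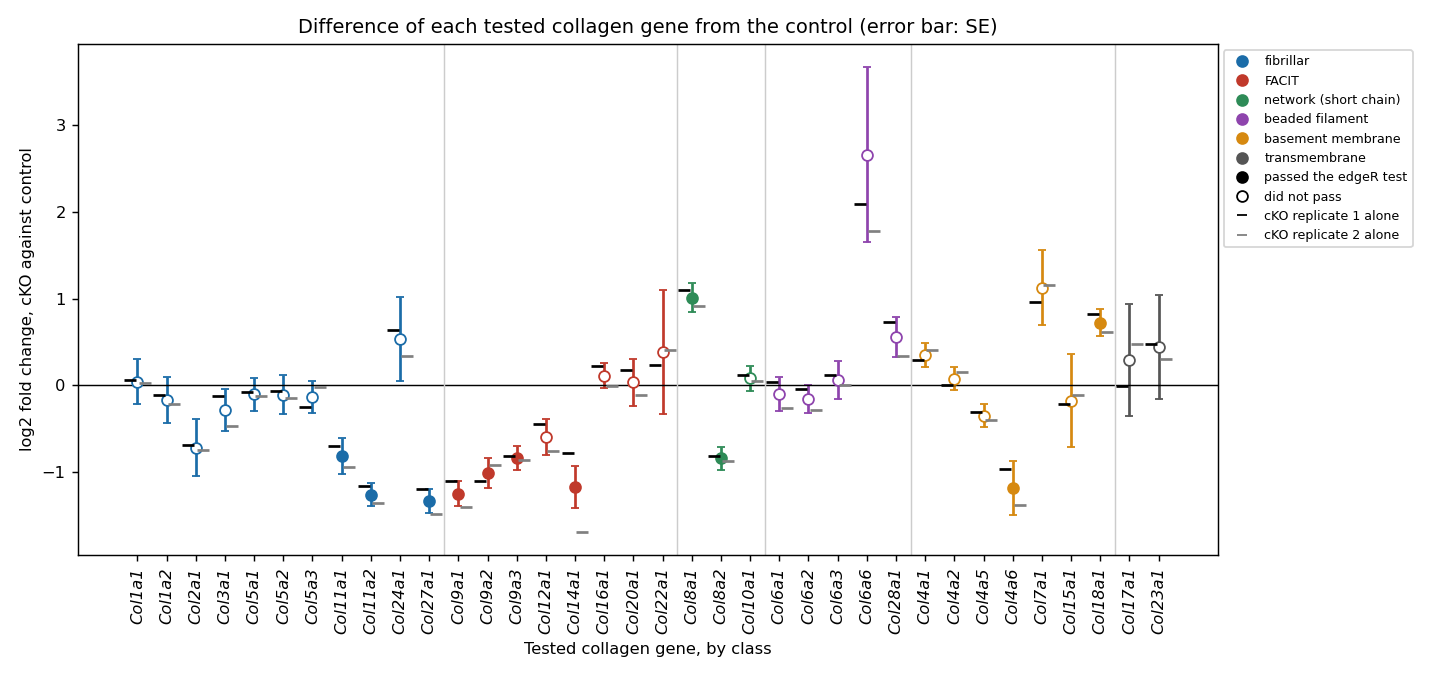
Log2 fold change of cKO against control (y axis) for the 36 tested collagen genes in order of class, with the SE from edgeR as error bar, filled points for genes that passed and dashes for each cKO library alone. The filled points below 0 are the 9 genes that fell, 3 of them fibrillar and 4 FACIT, and the 2 above 0 are Col8a1 and Col18a1.

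Levels of different genes are compared here as CPM per kilobase of exon, from the union of GENCODE M21 exons. On this scale Col2a1 was first in each library, at 1355 and 1297 CPM per kb in cKO against 2176 in the control. Col1a1 came next in every library (1077, 1059 and 1035 CPM per kb for cKO replicate 1, cKO replicate 2 and control) and then Col1a2 (587, 546 and 635). Among minor members some places changed. Col9a3 ranked 20 and 20 among the 44 in cKO against 16 in the control, and Col27a1 ranked 22 and 24 against 20. Col4a1, a basement membrane chain, moved the other way, from 21 in the control to 18 and 16.

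**Figure D3:**
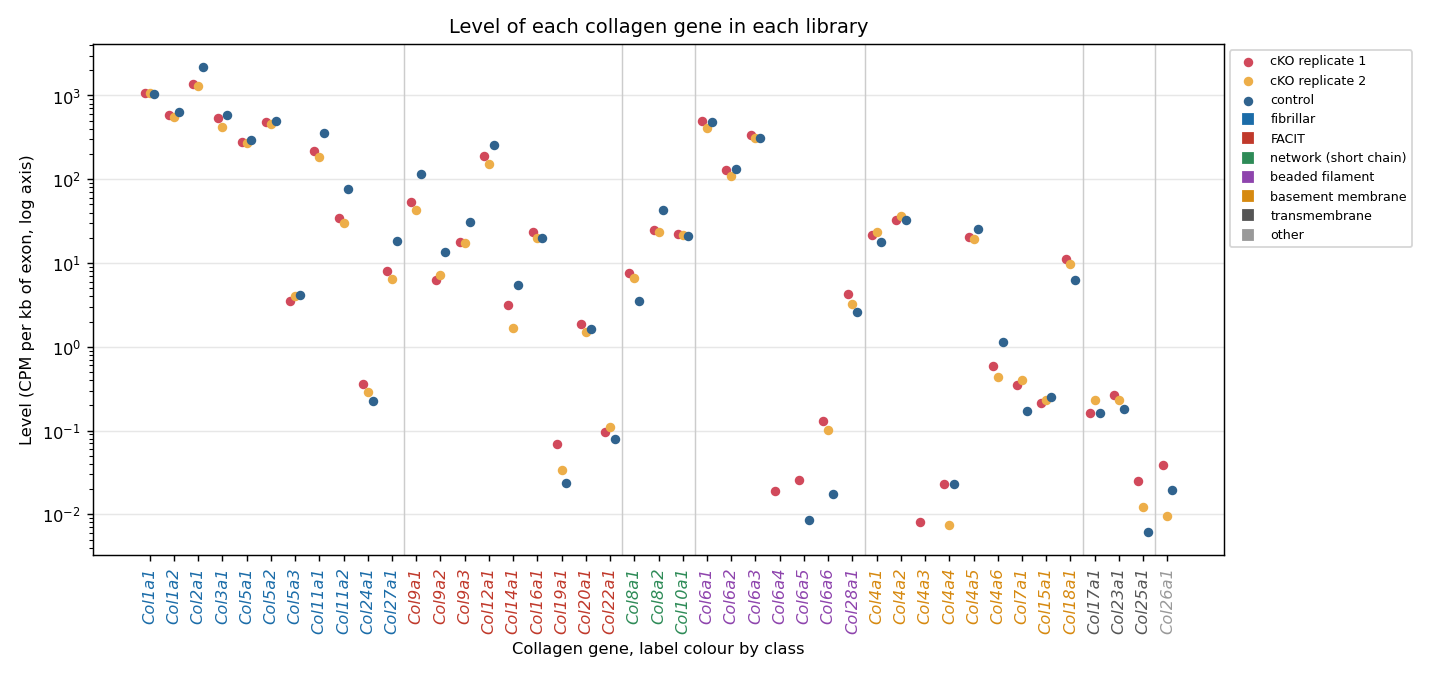
Level of each collagen gene with at least 1 count, as CPM per kb of exon on a log axis, in the 2 cKO libraries and the control, with gene labels coloured by class. Col2a1 reaches 2176 CPM per kb in the control. Col6a1, Col1a1, Col3a1, Col5a1 and Col11a1 are among the genes above 100 in each library, and the transmembrane genes lie below 1.

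Among the fibrillar collagens Col11a1, Col11a2 and Col27a1 were lower. Of 11 tested, 3 fell and 0 rose in edgeR, beside 1.9% and 3.01% of all tested genes, with a median log2 fold change of -0.17. An unadjusted p under 0.05, which 15.7% of all tested genes had, was found for 4. The 3 that fell are genes of cartilage collagens, and Col2a1, the main one, did not pass. None of the genes of the type I, III and V fibrils passed in edgeR. The RefSeq start regions of Col11a1, Col11a2 and Col27a1 are shown because these are the fibrillar genes that passed the test. Each line below gives up to 250 bases before the RefSeq start site on GRCm38.p6, 5′ to 3′ on the gene's strand, with capitals for any copy on either strand of the TATA-type pattern TATAAA, the CCAAT pattern, the GC box GGGCGG, which Sp1 binds, and the SOX-type cores, which are ACAAAG in one form and ACAATG in another. No pattern among these contains another, and overlapping copies run together.
Col11a1 (chr3:114030290-114030539, plus strand): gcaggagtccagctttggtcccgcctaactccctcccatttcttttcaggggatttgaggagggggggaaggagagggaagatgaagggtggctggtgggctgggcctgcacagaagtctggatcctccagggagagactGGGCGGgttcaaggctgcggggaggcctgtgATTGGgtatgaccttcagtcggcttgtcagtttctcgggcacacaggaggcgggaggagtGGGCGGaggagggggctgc
Col11a2 (chr17:34038888-34039137, plus strand): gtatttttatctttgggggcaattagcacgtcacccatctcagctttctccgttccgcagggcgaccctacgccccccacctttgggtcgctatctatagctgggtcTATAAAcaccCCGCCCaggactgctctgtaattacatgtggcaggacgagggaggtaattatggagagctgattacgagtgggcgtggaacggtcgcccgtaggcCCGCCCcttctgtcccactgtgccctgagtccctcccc
Col27a1 (chr4:63215162-63215411, plus strand): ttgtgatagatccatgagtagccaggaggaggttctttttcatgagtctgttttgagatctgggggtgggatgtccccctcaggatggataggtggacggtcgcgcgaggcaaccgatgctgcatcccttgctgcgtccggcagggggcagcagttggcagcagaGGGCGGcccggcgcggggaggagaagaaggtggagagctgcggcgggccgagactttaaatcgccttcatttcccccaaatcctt
The Col11a1 stretch holds GGGCGG 2 times and CCAAT once, the Col11a2 stretch holds TATAAA once and GGGCGG 2 times, and the Col27a1 stretch holds GGGCGG once. Neither SOX-type core is in these letters.

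Col2a1, the chain of the type II homotrimer and the bulk of cartilage collagen, stood at 12527 and 11984 CPM in cKO against 20116 CPM in the control. The cKO libraries were close together. Both lay below the control, as for 37.4% of all tested genes. The log2 fold change was -0.71 ± 0.33 (SE), or a level 0.609 times the control, and it did not pass (adjusted p = 0.283, edgeR). The call differed between tools: it passed in DESeq2 (adjusted p = 0.000515) and limma-voom (0.00456). It also passed in edgeR's legacy quasi-likelihood form (0.00578) and with robust squeezing (0.0141), both tried after the data were seen.

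Col11a1, the alpha1 chain of type XI that sits inside the thin fibril and sets its width, stood at 2804 and 2368 CPM in cKO against 4550 CPM. It fell by 0.82 ± 0.21 on the log2 scale (SE, adjusted p = 0.0222, edgeR). Its partner Col11a2 stood at 237 and 206 CPM against 529 CPM and fell by 1.26 ± 0.14 (adjusted p = 1.17e-06, edgeR). For each of these genes both cKO libraries lay below the control, as for 37.4% of all tested genes. The fall of Col11a1 did not pass when genes with a mean under 5 CPM were left out (adjusted p = 0.0798, edgeR), and that of Col11a2 did.

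Col27a1, a fibrillar collagen of cartilage with a shortened helix, had the lowest log2 fold change of all 36. It had 1290 and 1082 counts in cKO against 2934 in the control, or 104 and 84.5 CPM against 236 CPM. The change was -1.33 ± 0.14 (SE, adjusted p = 6.95e-07, edgeR), which is 2.51-fold lower. The gene kept its call in 8 of the 10 other fits.

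The fibrillar genes of other connective tissue did not pass. Col1a1 stood at 7068 and 6950 CPM against 6795 CPM, and its partner Col1a2 at 7294 and 6785 CPM against 7893 CPM. The first lay just above the control in both cKO libraries and the other just below. Col3a1, which forms fibrils with type I in elastic tissue, stood at 5244 and 4106 CPM against 5688 CPM, with log2 -0.28 ± 0.24 (SE, adjusted p = 0.652, edgeR). The type V genes Col5a1, Col5a2 and Col5a3, whose chains start type I fibrils, had log2 fold changes of -0.10, -0.10 and -0.13, each with both cKO libraries below the control. Col24a1 had few reads, 34 and 28 counts against 21.

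Of the FACIT genes, 4 of 8 tested were lower and 0 higher in edgeR, beside 1.9% and 3.01% of all tested genes. Their median log2 fold change was -0.71. None of the other 4 had an adjusted p under 0.05 in edgeR. An unadjusted p under 0.05, which 15.7% of all tested genes had, was found for 1 of them, Col12a1. The start region of Col9a1 is shown because this gene fell most in its class, and it has 2 RefSeq start sites 17593 bases apart that whole-gene counts do not separate.
Col9a1 (chr1:24177360-24177609, plus strand): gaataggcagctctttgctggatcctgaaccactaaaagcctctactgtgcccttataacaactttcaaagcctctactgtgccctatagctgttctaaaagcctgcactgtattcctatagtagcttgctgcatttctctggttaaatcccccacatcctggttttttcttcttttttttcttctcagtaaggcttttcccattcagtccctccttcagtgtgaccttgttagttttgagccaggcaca
This stretch before the upstream start holds none of the 5 letter patterns and is 43.6% G and C, where the median of all RefSeq windows is 52.4%.

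Type IX collagen is a heterotrimer of the products of Col9a1, Col9a2 and Col9a3 that decorates the type II fibril and is cross-linked to it. Col9a1 stood at 270 and 219 CPM in cKO against 580 CPM in the control, a log2 change of -1.25 ± 0.14 (SE, adjusted p = 2.73e-06, edgeR). Col9a2 stood at 19.3 and 22 CPM against 41.6 CPM (-1.01 ± 0.17, adjusted p = 0.000552, edgeR). Col9a3 stood at 68.6 and 66.1 CPM against 120 CPM (-0.84 ± 0.14, adjusted p = 0.000294, edgeR). For each chain both cKO libraries were below the control, as for 37.4% of all tested genes. The gap between the cKO libraries was at most 0.30 on the log2 scale. The 3 genes lie on chromosomes 1, 4 and 2, and Col9a3 shares exon sequence with the gene Tcfl5, from which its reads may not be separable.

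Among the other FACITs, Col14a1, found at sites of mechanical stress, fell by 1.17 ± 0.24 on the log2 scale (SE, adjusted p = 0.00338, edgeR). It had 278 and 152 counts in cKO against 477 in the control. Its cKO libraries lay far apart, at log2 -0.78 and -1.68 from the control, the widest gap of any tested collagen averaging 5 CPM or more. In DESeq2 it did not pass (adjusted p = 1.00), nor with robust squeezing (0.400). Col12a1, a large FACIT of tendon and ligament and the most abundant of the class, stood at 2859 and 2311 CPM against 3889 CPM. Its log2 fold change of -0.59 ± 0.21 (SE) did not pass in edgeR (adjusted p = 0.131) and passed in limma-voom (0.0201). Col16a1 stood at 157 and 135 CPM against 135 CPM and Col20a1 at 9.55 and 7.81 against 8.46 CPM, with the cKO libraries on either side of the control. Col22a1 had between 9 and 13 counts a library.

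The network class showed opposite changes of partner genes. Col8a1 and Col8a2 encode the short chains of type VIII collagen, which forms the hexagonal lattice beneath corneal and vascular endothelium. Their start regions are set side by side because the genes went in opposite directions.
Col8a1 (chr16:57754738-57754987, minus strand): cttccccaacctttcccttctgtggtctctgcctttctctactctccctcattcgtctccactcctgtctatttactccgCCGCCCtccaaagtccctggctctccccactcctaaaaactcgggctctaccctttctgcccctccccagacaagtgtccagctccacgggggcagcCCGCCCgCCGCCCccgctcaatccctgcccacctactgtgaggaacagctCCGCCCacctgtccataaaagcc
Col8a2 (chr4:126286544-126286792, plus strand): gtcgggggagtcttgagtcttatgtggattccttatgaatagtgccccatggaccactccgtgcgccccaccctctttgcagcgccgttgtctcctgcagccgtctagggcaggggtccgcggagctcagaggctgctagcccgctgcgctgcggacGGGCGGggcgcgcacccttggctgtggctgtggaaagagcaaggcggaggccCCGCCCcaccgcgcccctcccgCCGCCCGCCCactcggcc
Each stretch holds GGGCGG 4 times on one strand or the other, and none of the other 4 patterns.

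Col8a1 had 734 and 664 counts in cKO against 341 in the control, or 58.9 and 51.9 CPM against 27.5 CPM. It rose 2.02-fold (log2 1.01 ± 0.17 SE, adjusted p = 0.000336, edgeR). Col8a2 had 1373 and 1363 counts against 2407, or 110 and 106 CPM against 194 CPM, and fell by 0.84 ± 0.13 (adjusted p = 0.000187, edgeR). Both cKO libraries lay above the control for Col8a1, as for 36.6% of all tested genes, and below it for Col8a2, as for 37.4%. On the per-length scale Col8a1 was 0.0812 of Col8a2 in the control and 0.306 and 0.279 of it in cKO, so the ratio of the chains was 3.77 and 3.44 times that of the control. Endothelial markers were close to 0 in all libraries, as given above, while synovial fibroblast markers differed among themselves. Of 5 tested, Thy1, with 623 and 259 counts against 139, and Prg4, with 2885 and 2159 against 1680, rose in edgeR and did not pass in DESeq2. Pdgfra (3475 to 4177 counts in cKO against 2985), Clec3b (17 and 11 against 5) and Dpt (17 and 12 against 35, lower in both cKO libraries) did not pass. The part of fibroblast markers in the rise of Col8a1 was not tested.

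Col10a1, the marker of hypertrophic cartilage, stood at 70.4 and 67.2 CPM in cKO against 65.0 CPM in the control. Its log2 fold change of 0.08 ± 0.14 (SE) did not pass (adjusted p = 0.860, edgeR). It shares exon positions with Nt5dc1, and the use of strand in counting is not given in the sources used here. Its ratio to Col2a1 was 1.74 times that of the control in each cKO library.

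The abundant beaded-filament genes lay near the control. Of 5 tested, 0 passed by edgeR or limma-voom, and 0 of the 4 to which DESeq2 gave an adjusted p (Col6a6 had none), while unadjusted p-values under 0.05 numbered 2 in edgeR (15.7% of all genes), and the median log2 fold change was 0.06. Col6a1, Col6a2 and Col6a3 encode the chains of the pericellular type VI filament. Col6a1 stood at 2178 and 1770 CPM in cKO against 2115 CPM in the control, Col6a2 at 1078 and 918 against 1113 CPM, and Col6a3 at 4047 and 3738 against 3736 CPM. The cKO values of Col6a1 bracket the control, and none of the 3 log2 fold changes exceeded 0.16 in size. Col6a6 had 15 and 12 counts against 2, a ratio of normalised counts of 6.63 with an exact 95% binomial interval of 1.67 to 57.6 that sums the cKO libraries and covers counting error only, and it did not pass (adjusted p = 0.168, edgeR). Col28a1, a collagen of peripheral nerve, had 263 and 206 counts against 157 (log2 0.56 ± 0.23 SE, adjusted p = 0.215, edgeR).

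Basement membrane collagens split by chain. Of 7 tested, 1 rose and 1 fell in edgeR (median log2 0.08), beside 3.01% and 1.9% of all tested genes. With these 2 included, 5 of the 7 had an unadjusted p under 0.05 in edgeR, against 15.7% of all genes. The other 3 of the 5 did not pass after adjustment. Col18a1, a heparan sulfate collagen whose end fragment is endostatin, is the member that rose, and the region before the more distal of its 2 RefSeq start sites is shown for that reason.
Col18a1 (chr10:77166549-77166780, minus strand): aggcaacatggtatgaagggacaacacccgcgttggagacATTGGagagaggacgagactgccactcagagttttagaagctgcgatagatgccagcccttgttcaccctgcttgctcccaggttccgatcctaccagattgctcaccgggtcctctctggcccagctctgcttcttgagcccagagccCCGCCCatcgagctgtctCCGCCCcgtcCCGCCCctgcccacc
This stretch holds GGGCGG 3 times and CCAAT once. Col18a1 had 976 and 871 counts in cKO against 550 in the control, or 78.4 and 68.1 CPM against 44.3 CPM. It rose 1.65-fold (log2 0.72 ± 0.15 SE, adjusted p = 0.00530, edgeR), and in DESeq2 it did not pass (adjusted p = 0.0861).

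The type IV genes sit in head-to-head pairs, and each tested pair lay on one side of the control with sizes that were not compared by a test. Col4a1 and Col4a2 on chromosome 8, whose products form the most widespread type IV trimer, have RefSeq start sites 21 bases apart and overlap at their first exons. Col4a1 stood at 163 and 177 CPM against 133 CPM (log2 0.35 ± 0.14 SE, adjusted p = 0.186, edgeR) and Col4a2 at 217 and 239 against 216 CPM (log2 0.08 ± 0.14). Both cKO libraries lay above the control for each gene, as for 36.6% of all tested genes, and neither gene passed. Col4a5 and Col4a6 share the X chromosome, with start sites 1343 bases apart. Col4a6 had 58 and 44 counts in cKO against 114 in the control and fell by 1.18 ± 0.31 (SE, adjusted p = 0.0263, edgeR), but not in DESeq2 (adjusted p = 0.670). Col4a5 stood at 138 and 129 CPM against 171 CPM (log2 -0.35 ± 0.13), which did not pass (adjusted p = 0.170, edgeR). For cKO replicates 1 and 2 the log2 differences from the control were -0.96 and -1.38 for Col4a6 and -0.30 and -0.40 for Col4a5. These 2 libraries differ in Xist, and the part of that difference in the X-linked genes was not tested.

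Other members of the class were sparse. Col7a1, the anchoring fibril collagen of skin, had 45 and 53 counts in cKO against 22 in the control (log2 1.12 ± 0.43 SE, adjusted p = 0.179, edgeR). Col15a1 had between 17 and 20 counts a library. Col4a3 had 1 count in all and Col4a4 had 7.

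Transmembrane collagens, which sit in the plasma membrane, were near the limit of detection. Of 4, 2 were tested and 0 passed by edgeR, DESeq2 or limma-voom, and unadjusted p-values under 0.05 numbered 0 in edgeR. Col17a1, of the epidermal hemidesmosome, had 12, 18 and 12 counts in cKO replicate 1, cKO replicate 2 and control, and Col23a1 had 19, 17 and 13. Col13a1 had 0 counts in each library, which allows up to 3 counts, or at most 0.242 CPM, by counting error. Col25a1 had between 1 and 4 counts. The untested remainder, Col19a1, Col6a4, Col6a5, Col4a3, Col4a4, Col13a1, Col25a1 and Col26a1, had between 0 and 6 counts in any library, too few to show a difference at this depth.

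Ratios between chains do not depend on how libraries are scaled, and they compare collagen genes within a library. Relative to Col2a1, Col11a1 was 0.99 and 0.874 of its control ratio in the cKO libraries. Col9a3 was 0.915 and 0.922, and Col9a2 was 0.744 and 0.889. Col11a2 was 0.719 and 0.654, Col9a1 was 0.746 and 0.635, and Col27a1 was 0.703 and 0.600. Each of these genes was lower against Col2a1 in both cKO libraries, by differing amounts. Col1a1 against Col2a1 was 1.67 and 1.72 times its control ratio, and Col3a1 against Col2a1 was 1.48 and 1.21 times. Within types, Col1a1 to Col1a2 per length was 1.63 in the control and 1.84 and 1.94 in cKO, Col5a1 to Col5a2 was 0.587 against 0.582 and 0.595, and Col11a1 to Col11a2 was 4.64 against 6.39 and 6.20. With 2 libraries against 1 no permutation test could reach a threshold, so these ratios carry no test.

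**Figure D4:**
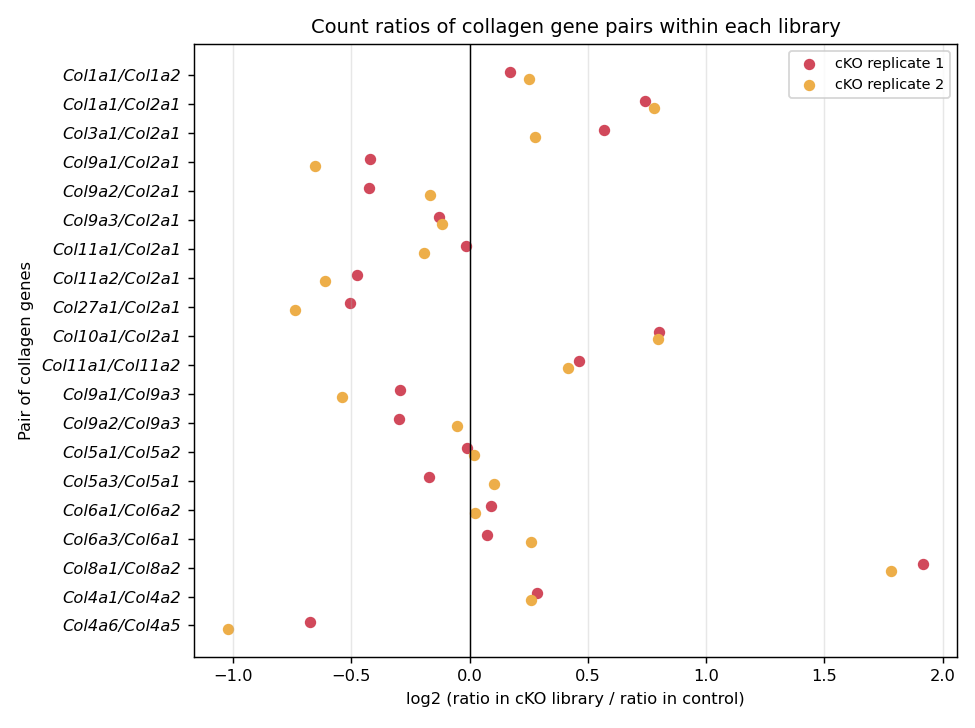
Change in the count ratio of pairs of collagen genes (y axis) as the log2 of the ratio in a cKO library over that in the control (x axis), 1 point for each cKO library. The pair Col8a1 and Col8a2 lies farthest from 0, at 1.92 and 1.78, and the pair Col5a1 and Col5a2 lies at -0.01 and 0.02.

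Windows from 250 bases before to 50 after the RefSeq start were found for 35 of the 44 members (38 windows). No entry was matched for Col1a1, Col2a1, Col4a3, Col5a2, Col9a3, Col12a1, Col14a1, Col22a1 and Col26a1. GGGCGG was in 60.5% of the collagen windows and 35.7% of all 32851 windows, CCAAT in 34.2% and 37.4%, and TATAAA in 13.2% and 13.6%. Of the SOX-type cores, ACAAAG was in 13.2% of collagen windows against 18.7% of all, and the form ACAATG was in 2.63% against 12.6%. Collagen windows were richer in G and C, with a median of 59.0% against 52.4% over the bases before the start. These matches describe letters and not bound sites.

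Other genes of the collagen pathway were counted in 5 lists. Of 53 tested, 3 fell and 2 rose in edgeR, which is 9.43% of them beside 4.91% of all genes. DESeq2 called 0 of the 53. Among 15 genes that hydroxylate and glycosylate chains, 1 fell, the galactosyltransferase gene Colgalt2, with 39 and 25 counts against 91 (log2 -1.53 ± 0.36 SE, adjusted p = 0.0114, edgeR), which lies below a mean of 5 CPM and was named after its value was seen. Of 13 genes for folding and export, 0 passed in edgeR, DESeq2 or limma-voom. Before adjustment 2 were under 0.05 in edgeR, near the 15.7% of all tested genes. Of 13 genes for processing and crosslinking, Pcolce2, an enhancer of propeptide removal, fell by 0.57 ± 0.14 (SE, adjusted p = 0.0176) and Loxl1, of the lysyl oxidase family, rose by 0.56 ± 0.14 (adjusted p = 0.0191) on the log2 scale in edgeR. Of 8 collagen receptor genes tested, Itga1, an integrin subunit that binds type IV, fell by 0.80 ± 0.17 (adjusted p = 0.00448) and Itga11, one that binds type I, rose by 0.55 ± 0.14 (adjusted p = 0.0189) in edgeR. Of 4 collagen-degrading proteases tested, 0 passed in edgeR, DESeq2 or limma-voom, and 0 were under 0.05 before adjustment in edgeR. The list medians lay between -0.21 and 0.17.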

How the data were processed

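RNA-seq counts per gene symbol were measured in 2 cKO libraries and 1 control library, grouped by their titles. Per the labels' protocols, RNA was depleted of ribosomal RNA and sequenced as Ion Proton libraries. The deposited values are whole-number read counts, 1 column per library. Builds named in the submitters' processing notes are GRCm38 and GRCh37. For aligner, counting tool, annotation and strandedness the answer is not given in the sources used here. Reads of overlapping genes therefore cannot be separated.

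From the counts of 44788 symbols, 15529 passed filterByExpr. They were tested with edgeR 4.0.16 in R 4.3.3 (TMM, glmQLFit with adjusted deviances, Benjamini-Hochberg adjustment over all genes, threshold 0.05). The prior degrees of freedom were 19.9. SE was computed as the absolute log2 fold change over the root of the F statistic. Folds of single libraries used a prior count of 2. On simulated counts the test recovered 44% of 2-fold and 96% of 3-fold changes. The simulation gave every gene and library the same dispersion (spread setting), the control included, and changed only genes of 5 CPM or more. It therefore cannot show how the test does if the lone control varies otherwise. Exon lengths and positions came from GENCODE M21 (GRCm38), and start-site sequences from RefSeq (GRCm38.p6); printed stretches end where a GENCODE exon begins.

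Alternatives were DESeq2 1.42.0, limma-voom 3.58.1, other scalings, filters and prior degrees of freedom. All collagens that passed the filter are named. Of each pathway list, up to 3 called genes with a mean of 5 CPM or more are named. The members and lists were chosen with earlier results of these data known.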

Additional observations from a re-analysis of the deposited data

How the results depend on the processing

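In all, 10 other fits were run, of which the legacy quasi-likelihood form and robust squeezing were added after the data were seen, and no log2 fold change of a tested collagen changed sign in any of them. The number of collagens called lower, 9 in edgeR, lay between 8 and 11 under RLE and upper-quartile scaling, DESeq2, limma-voom and the added fits. It was 6 among genes averaging 5 CPM or more, 5 with prior degrees of freedom of 5, 0 with 3 and 0 without a filter on low counts, where 16 of 43 collagens had an unadjusted p under 0.05. The number called higher was 1 in DESeq2, 1 with genes averaging 5 CPM or more, 0 with prior degrees of freedom of 5 or 3 and 0 without a filter. Under the prior degrees of freedom of 5, the 5 collagens called were among the 11 called in edgeR with its estimated prior. Of those 11, 8 were also called in DESeq2. Over all genes, 295 lower and 467 higher calls became 84 and 226 in DESeq2, 89 and 201 with genes averaging 5 CPM or more, 42 and 151 with prior degrees of freedom of 5, 4 and 83 with 3, and 0 and 0 without a filter. The cause of these differences was not tested.

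At least 2-fold in each cKO library, 3 collagens were lower and 1 higher, and the share of all genes at this fold was not counted. The higher one is Col6a6, with 2 counts in the control. At 1.5-fold the numbers were 10 and 4, against 4.26% and 5.29% of all genes. With genes averaging 5 CPM or more the number higher at 1.5-fold was 2. Leaving out a cKO replicate in turn gave 10 to 11 lower and 4 to 6 higher. The median log2 fold change of the collagens, -0.10, was -0.16 with genes averaging 5 CPM or more and 0.037 without a filter, where fewer and more collagens entered, and -0.12 to -0.057 with a cKO replicate left out. Without cKO replicate 1 or 2, 1 library stands against 1 and no test remains. No paired analysis was possible because the control is a single library without a replicate number.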
